A study of Mus musculus with 20 samples.

Results

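The 10 genes described here were listed as growth cone and cytoskeleton genes of immature olfactory sensory neurons. They are Gap43, Gng8, Dpysl3, Dpysl5, Stmn1, Stmn2, Stmn4, Dcx, Sox11 and Tubb3. They were taken by symbol from a fixed list, and each of the 10 had 1 probe set among the 22206 gene probe sets of the array. Expression was measured in olfactory mucosa of S100a5-tauGFP mice of both sexes, aged 7 to 12 weeks, in which green fluorescent protein (GFP) reports the S100a5 locus. The S100a5 gene, for a protein that binds calcium, is switched up in mature olfactory neurons when they are active. Every mouse spent 40 h alone in a chamber with a clean air flow of 3.1 L/min. From 26 h on, pulses of 10 s were given every 20 min, of filtered air in the vehicle groups and of an odorant in the odor groups. The sample labels name that odorant as an artificial cigarette smoke odor, whereas the design text of the series names bourgeonal, and the sample labels were followed. The 30 mice made up 10 pools of 3, and flow sorting separated the dissociated cells of each pool into GFP+ and GFP- fractions. The groups were therefore vehicle GFP-, vehicle GFP+, odor GFP- and odor GFP+, with 5 samples each, and all 4 groups carried the reporter. A GFP+ sample holds cells in which the S100a5 reporter was active, and a GFP- sample holds every other cell of the dissociated mucosa, so neither is a single cell type, and each value is an average over 3 mice.

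New olfactory sensory neurons arise throughout life from globose basal cells. A young neuron first extends an axon to the olfactory bulb and only later expresses the transduction machinery and the olfactory marker protein Omp. During that outgrowth the axon tip, or growth cone, depends on proteins at its membrane such as Gap43, on tubulin and proteins that bind tubulin (the stathmins, the collapsin response mediator proteins and doublecortin), and on transcription factors of the SoxC group that switch neuronal genes on. Gap43 and Gng8 are the usual labels of this stage in the olfactory epithelium. Tubb3, by contrast, is a tubulin of neurons in general. As S100a5 belongs to mature, active neurons, the comparison of GFP+ with GFP- cells asks how far each of these genes was shared between active mature neurons and the rest of the mucosa.

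Promoter sequence from RefSeq (GRCm38.p6) was held for 5 of the 10 genes, and 4 are shown because they divide into genes that were lower in GFP+ cells (Gng8 and Sox11) and genes that did not pass the test (Dpysl5 and Dcx). Each is the 250 bases just before the annotated start, on the strand of the gene. Gng8 lies on the plus strand at chr7:16891536-16891785, Sox11 on the minus strand at chr12:27342719-27342968, Dpysl5 on the plus strand at chr5:30711314-30711563 and Dcx on the minus strand at chrX:143933220-143933469. Capitals mark matches to any of 4 motifs.
Gng8: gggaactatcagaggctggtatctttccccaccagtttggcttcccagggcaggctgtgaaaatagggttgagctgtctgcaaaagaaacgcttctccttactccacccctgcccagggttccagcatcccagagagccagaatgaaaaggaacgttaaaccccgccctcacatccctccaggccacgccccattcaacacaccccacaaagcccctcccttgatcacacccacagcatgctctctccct
Sox11: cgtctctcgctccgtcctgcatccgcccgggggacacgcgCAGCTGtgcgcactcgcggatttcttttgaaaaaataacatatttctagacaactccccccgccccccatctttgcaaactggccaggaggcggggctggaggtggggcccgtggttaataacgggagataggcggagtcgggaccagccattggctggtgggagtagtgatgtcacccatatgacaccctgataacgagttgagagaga
Dpysl5: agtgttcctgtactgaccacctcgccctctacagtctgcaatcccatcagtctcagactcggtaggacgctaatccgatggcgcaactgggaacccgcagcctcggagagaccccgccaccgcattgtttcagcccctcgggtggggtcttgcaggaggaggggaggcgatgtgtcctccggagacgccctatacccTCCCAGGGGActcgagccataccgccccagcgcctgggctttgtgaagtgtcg
Dcx: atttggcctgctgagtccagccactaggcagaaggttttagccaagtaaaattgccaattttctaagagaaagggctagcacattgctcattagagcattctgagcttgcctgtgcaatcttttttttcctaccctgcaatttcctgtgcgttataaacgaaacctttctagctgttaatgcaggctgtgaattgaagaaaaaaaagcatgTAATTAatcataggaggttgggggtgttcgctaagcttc

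The motifs searched, on both strands, were the palindromic site of the EBF factors of olfactory neurons (TCCC and GGGA, 2 bases apart), CAGATG and CAGCTG, E-boxes of neurogenic bHLH factors, and TAATTA, a homeodomain site. None overlapped another in these windows. Among 32851 promoter windows of the same length, 0.779% held the EBF site, 14.4% CAGATG, 13.0% CAGCTG and 4.84% TAATTA. The Dpysl5 window held 1 EBF site match, TCCCAGGGGA, from 53 to 44 bases before the start. Sox11 held 1 CAGCTG, from 210 to 205 bases before it, and Dcx 1 TAATTA, from 39 to 34 bases before its upstream start. Gng8 and Tubb3 held none of these letters. In base content the windows differed as widely: 68.0% of bases were G or C for Tubb3, 62.8% for Dpysl5, 58.0% for Sox11, 56.0% for Gng8 and 41.6% for Dcx, against a median of 52.4% over all windows. On base content Gng8 and Sox11, which were lower in GFP+ cells, thus lay between genes that did not pass the test.

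All values below are log2 signals, so that a difference of 1 is a doubling, and a level of 1 probe set is not comparable with that of another. On the 16 arrays numbered 1 to 4 the median gene signal was 6.06 to 6.39. The 4 arrays of replicate 5, 1 in each group, lay at 7.03 to 7.46 and read higher for most genes. The median of the background control probes was 5.14 to 6.34 per array. Of the 16 arrays numbered 1 to 4, 3 correlated least with their groups and are named where they touch a result. They were vehicle GFP- 1 (mean Pearson r = 0.895), vehicle GFP+ 2 (0.946) and odor GFP- 2 (0.951). The next, vehicle GFP- 3, was at 0.953, so the cut after odor GFP- 2 was narrow. The reporter gene followed the sort. In vehicle pools the mean S100a5 signal was 16.60 ± 0.32 for the GFP+ and 15.30 ± 0.68 for the GFP- fraction (SD, n = 5 each), and in odor pools 16.91 ± 0.29 and 14.76 ± 0.66. It was higher in GFP+ cells in 5 of 5 pools of each condition (limma adjusted p = 0.0368 and 0.00131), but the vehicle call was lost under 7 alternatives. These were quantile normalization (adjusted p = 0.0708), leaving out both pools numbered 5 (0.123), and leaving out vehicle replicate 2 (0.105), 3 (0.158) or 5 (0.107) or odor replicate 1 (0.0531) or 3 (0.0557). Omp, at 18.1 to 19.65 on all arrays, was close to the brightest probe set of each array in both fractions.

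Of the 10 genes, 5 were lower in GFP+ than in GFP- cells in vehicle pools, and the same 5 in odor pools: Gap43, Gng8, Dpysl3, Stmn1 and Sox11. Gng8 lay at background in GFP+ cells, so no fold is given for it. The fitted changes of the other 4 ran from 5.15-fold (Sox11) to 9.96-fold (Dpysl3) in vehicle pools and from 5.18-fold (Stmn1) to 13.73-fold (Dpysl3) in odor pools. For Dpysl3 the array vehicle GFP+ 2 lay within 1 unit of its background control median, so the 9.96-fold is not exact. The other 5, Dpysl5, Stmn2, Stmn4, Dcx and Tubb3, did not pass the test in either condition, and their changes lay between -0.74 and 0.47. None of the 10 passed the test as higher in GFP+ cells. These calls were made by limma on the difference between fractions within each pool, at an adjusted p under 0.05 over all probe sets. Over all probe sets 6.86% were lower and 2.26% higher in GFP+ cells of vehicle pools, and 5.82% and 2.07% in odor pools. The median change of the 10 genes was -1.55 in vehicle and -1.46 in odor pools, where that of all probe sets was 0.09 and 0.08. The values of the groups did not overlap for 3 of the 10 in vehicle pools (Gap43, Gng8 and Sox11), against 3.91% of all probe sets with every GFP+ value below every GFP- value, and for all 5 in odor pools, against 4.02%. These 5 were lower in GFP+ cells in 10 of 10 pools, as were 6.40% of all probe sets. In such bulk samples fewer cells of a type and less RNA per cell cannot be told apart. With each array centred on its median, which moved the median change of all probe sets in vehicle pools from 0.09 to 0.33 and the split of all calls from 501 higher and 1523 lower to 1169 and 1211, the same number of these genes, 5, passed.

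**Figure D1:**
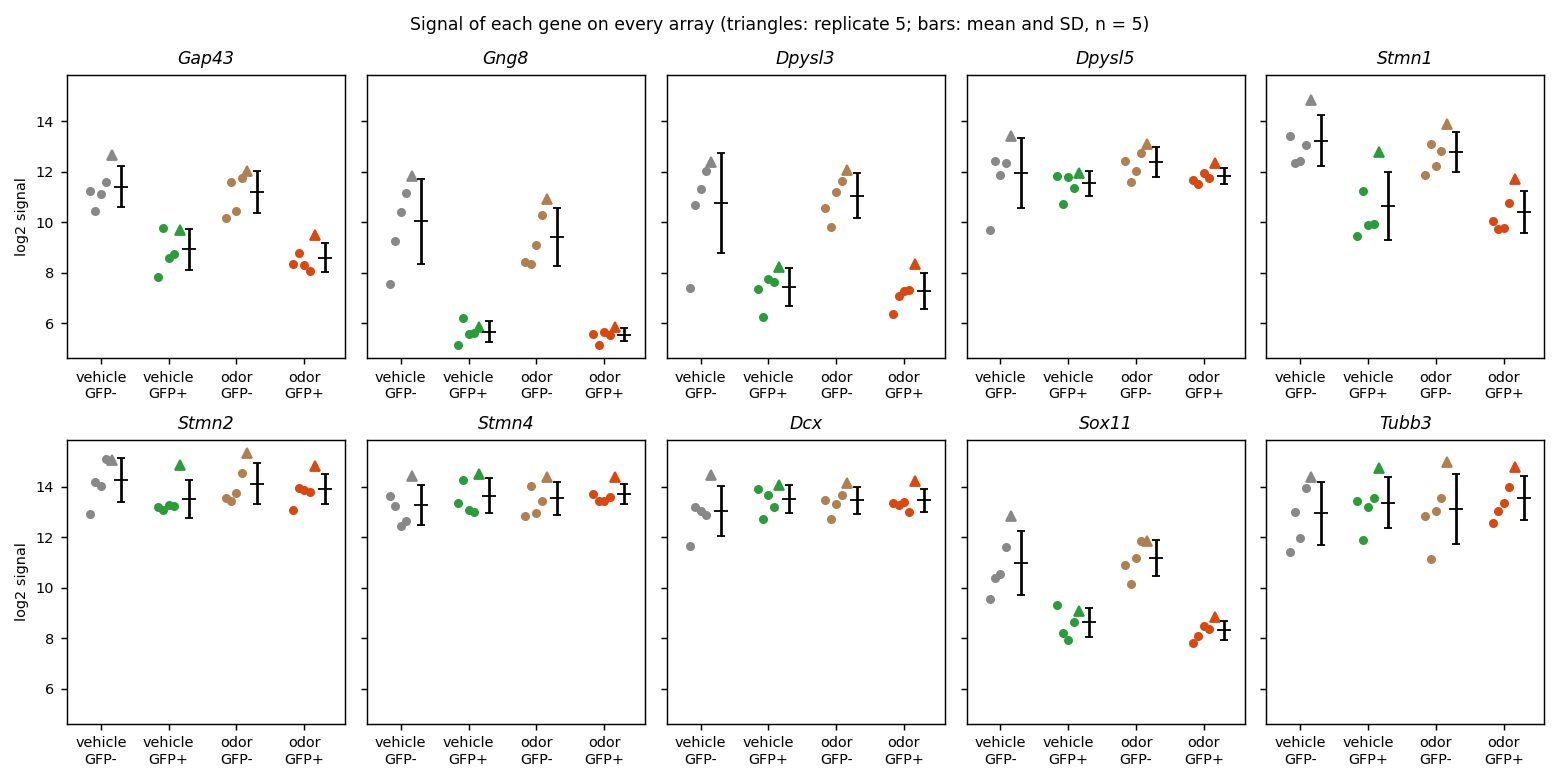
Log2 signal of the 10 genes on each of the 20 arrays, by group; circles are replicates 1 to 4, triangles the arrays of replicate 5, and bars the mean and SD (n = 5). Gap43, Gng8, Dpysl3, Stmn1 and Sox11 sit lower in both GFP+ groups, while Stmn4, Dcx and Tubb3 overlap across all 4 groups.

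Gap43 encodes a growth cone membrane phosphoprotein that links signals to the actin skeleton. In vehicle pools 1 to 5 its signal was 11.25, 10.45, 11.12, 11.60 and 12.65 in GFP- cells and 7.85, 9.78, 8.58, 8.75 and 9.70 in GFP+ cells. In odor pools it was 10.16, 11.59, 10.43, 11.76 and 12.02 against 8.36, 8.79, 8.29, 8.07 and 9.49. The fractions did not overlap in either condition, and the smallest difference, -0.67, was in vehicle pool 2, whose GFP+ array gave the highest GFP+ value of all 10. The fitted change was -2.48 (SE 0.36, adjusted p = 0.000343) in vehicle and -2.59 (SE 0.36, adjusted p = 0.000278) in odor pools. Gap43 signal in the GFP+ samples lay above the background controls, with no array within 1 unit of its background control median.

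Gng8 encodes a gamma subunit of heterotrimeric G proteins found in immature olfactory and vomeronasal neurons. In GFP- cells it was at 7.55, 9.25, 10.42, 11.14 and 11.83 in vehicle pools and at 8.43, 8.36, 9.09, 10.29 and 10.93 in odor pools. In GFP+ cells it was at 5.12, 6.19, 5.57, 5.60 and 5.87 in vehicle and at 5.58, 5.12, 5.67, 5.52 and 5.84 in odor pools. Every GFP+ array thus lay within 1 unit of its background control median, and 4 of 10 lay below it. The fitted differences were -4.37 (SE 0.48, adjusted p = 3.95e-05) and -3.87 (SE 0.48, adjusted p = 0.000127), and since they were taken against a signal at background their size is not an exact fold. The GFP- values spread over more than 4 units in vehicle pools, from 7.55 in pool 1 to 11.83 in pool 5, so that the size of the difference differed between pools (-2.44 to -5.96) more than its sign. Of the other gamma subunit genes measured, Gng2 (-2.24), Gng12 (-1.77) and Gng5 (-1.68) were also lower in GFP+ cells of vehicle pools. Gng13, the gamma subunit of mature olfactory transduction, was at 0.13 (SE 0.34, adjusted p = 0.914).

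Dpysl3 and Dpysl5 belong to the collapsin response mediator proteins, cytosolic proteins that carry repulsive guidance signals to microtubules. Dpysl3 in GFP- cells was at 7.39, 10.69, 11.32, 12.04 and 12.37 in vehicle pools and at 10.57, 9.83, 11.19, 11.64 and 12.08 in odor pools. In GFP+ cells it was at 7.35, 6.23, 7.77, 7.63 and 8.24 in vehicle and at 6.38, 7.09, 7.28, 7.32 and 8.34 in odor pools. The exception was vehicle pool 1, with a difference of -0.04 where the other 4 vehicle pools had -3.55 to -4.46, and it made the vehicle groups overlap. The change was -3.32 (SE 0.52, adjusted p = 0.000619) in vehicle pools, -4.14 (adjusted p = 1.61e-07) without vehicle replicate 1, and -3.78 (SE 0.52, adjusted p = 0.000254) in odor pools.

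Dpysl5, which in other systems restrains neurite growth, behaved otherwise. Its GFP- values were 9.70, 12.44, 11.87, 12.36 and 13.41 in vehicle and 12.41, 11.60, 12.04, 12.75 and 13.10 in odor pools. Its GFP+ values were 11.85, 10.71, 11.80, 11.37 and 11.95 in vehicle and 11.69, 11.51, 11.94, 11.74 and 12.33 in odor pools. The fractions overlapped in both conditions, and vehicle pool 1 was the only pool of 10 with a higher GFP+ value (a difference of 2.15). The changes of -0.42 (95% confidence interval -1.36 to 0.52) and -0.54 (-1.48 to 0.40) did not pass, but without vehicle replicate 1 the vehicle change was -1.07 with an adjusted p of 0.0216 by limma. The change of Dpysl3 was more negative than that of Dpysl5 in 10 of 10 pools, with a mean difference of -3.07 ± 0.51 (SD, n = 10 pools). That pair was chosen after the values were seen, so the difference is a description and has no test. Of the other members of the family, Dpysl2 (0.94), Dpysl4 (0.33) and Crmp1 (0.13), named here whatever their result, none passed in vehicle pools.

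**Figure D2:**
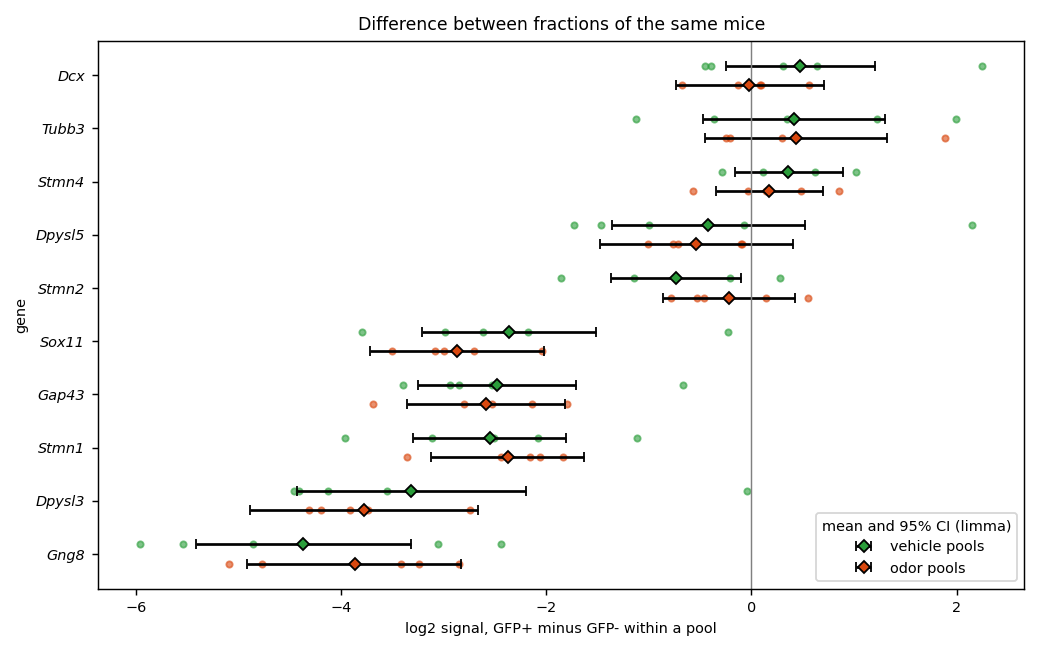
GFP+ minus GFP- log2 signal within each pool (small points, 5 per condition), with the limma mean and its 95% confidence interval (diamonds and bars), for vehicle and odor pools. The intervals of Gng8, Dpysl3, Stmn1, Gap43 and Sox11 lie wholly below 0 in both conditions; the vehicle point of Dpysl3 near 0 and those of Dpysl5 and Dcx above 2 are all from vehicle pool 1.

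The stathmins bind tubulin dimers and promote the disassembly of microtubules, and Stmn1 is also known from dividing cells. Stmn1 in GFP- cells was at 13.41, 12.36, 12.41, 13.05 and 14.85 in vehicle and at 11.88, 13.10, 12.24, 12.83 and 13.89 in odor pools. In GFP+ cells it was at 9.46, 11.25, 9.90, 9.94 and 12.77 in vehicle and at 10.04, 9.74, 9.79, 10.77 and 11.73 in odor pools. Only the GFP+ array of vehicle replicate 5, from the brighter set of arrays, reached into the GFP- range, and every pool was lower in GFP+ cells. The change was -2.55 (SE 0.34, adjusted p = 0.000204) in vehicle and -2.37 (SE 0.34, adjusted p = 0.000428) in odor pools.

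Stmn2, a membrane-bound stathmin of growing axons, was high in both fractions. Its GFP- values were 12.92, 14.20, 14.03, 15.09 and 15.06 in vehicle and 13.54, 13.42, 13.74, 14.55 and 15.34 in odor pools. Its GFP+ values were 13.20, 13.06, 13.28, 13.23 and 14.85 in vehicle and 13.08, 13.96, 13.88, 13.77 and 14.80 in odor pools. The fractions overlapped in each condition. The change of -0.74 in vehicle pools (95% confidence interval -1.37 to -0.10, adjusted p = 0.188) passed with quantile normalization (-0.84, adjusted p = 0.0269) and without vehicle replicate 1 (-0.99, adjusted p = 0.0414), whereas that in odor pools was -0.22 (-0.86 to 0.42, adjusted p = 0.842).

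Stmn4, a neuronal stathmin of the same membrane-bound kind, ran from 12.45 to 14.40 in GFP- and from 12.99 to 14.51 in GFP+ cells of vehicle pools. In odor pools it ran from 12.85 to 14.39 and from 13.43 to 14.36. Its change was 0.36 (95% confidence interval -0.16 to 0.89) and 0.17 (-0.35 to 0.70), with 4 of 5 vehicle and 3 of 5 odor pools higher in GFP+ cells. Stmn3, the fourth gene of the family, was at 0.28 (adjusted p = 0.646) in vehicle pools. Within each pool the change of Stmn1 was below that of Stmn4 in 10 of 10 cases, with a mean difference of -2.73 ± 0.57, and below that of Stmn2 in 9 of 10, with -1.99 ± 1.28 (SD, n = 10 pools). The change of Stmn2 was below that of Stmn4 in 8 of 10, with -0.74 ± 1.08. These pairs too were chosen after the values were seen, and the differences have no test.

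Dcx and Tubb3 are the microtubule genes most used to label young neurons, and neither separated the fractions. Dcx, or doublecortin, which stabilises microtubules in migrating and growing neurons, ran from 11.66 to 14.46 in GFP- and from 12.73 to 14.07 in GFP+ cells of vehicle pools. In odor pools it ran from 12.70 to 14.15 and from 12.99 to 14.24. Its change was 0.47 (95% confidence interval -0.25 to 1.20) in vehicle and -0.02 (-0.74 to 0.71) in odor pools. The vehicle value came mostly from pool 1, which differed by 2.25, and was 0.03 without it. The related kinases Dclk1 (-0.45), Dclk2 (0.17) and Dclk3 (1.40), named here whatever their result, did not pass in vehicle pools.

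Tubb3, the neuronal class of beta-tubulin, ran from 11.42 to 14.38 in GFP- and from 11.88 to 14.73 in GFP+ cells of vehicle pools. In odor pools it ran from 11.14 to 14.99 and from 12.57 to 14.78. Its change was 0.41 (95% confidence interval -0.47 to 1.30) and 0.43 (-0.45 to 1.32), with 3 of 5 pools higher in GFP+ cells in each condition, and the vehicle value was 0.02 without vehicle replicate 1. These intervals leave room for a change of more than 2-fold upward, so a shared level is not shown. Of the 7 other beta-tubulin genes none passed; Tubb2b was at -1.71 (SE 0.70, adjusted p = 0.197) and Tubb5 at -1.21 (SE 0.61, adjusted p = 0.338).

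Sox11 is the 1 transcription factor among the 10, a SoxC protein that activates neuronal cytoskeleton genes in newborn neurons. In GFP- cells it was at 9.54, 10.39, 10.53, 11.60 and 12.85 in vehicle and at 10.91, 10.13, 11.17, 11.85 and 11.84 in odor pools. In GFP+ cells it was at 9.31, 8.21, 7.91, 8.62 and 9.06 in vehicle and at 7.82, 8.09, 8.46, 8.35 and 8.83 in odor pools. The fractions did not overlap, though in vehicle pool 1 the difference was only -0.23 where the other 9 pools had -2.04 to -3.80. The change was -2.36 (SE 0.39, adjusted p = 0.00109) in vehicle pools, -2.90 (adjusted p = 8.64e-06) without vehicle replicate 1, and -2.87 (SE 0.39, adjusted p = 0.00026) in odor pools. The other SoxC genes, Sox4 (-0.55, adjusted p = 0.263) and Sox12 (0.38, adjusted p = 0.526), did not pass in vehicle pools. Whether Sox11 differed from them was not tested.

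Some of the genes spread more widely over the GFP- than over the GFP+ arrays. After centring of the arrays on their medians, the SD over the 10 GFP- arrays was 1.33 for Dpysl3 and 1.18 for Gng8. Over the 10 GFP+ arrays it was 0.55 and 0.37, but Gng8 lay at background there. The Dpysl3 spread took in vehicle GFP- 1, with a centred value of 1.0 where the other GFP- arrays had 3.5 to 5.7. No SD was taken without that array. Gap43 (0.56 and 0.49) and Stmn4 (0.45 and 0.30) varied less, and Stmn1 varied more in GFP+ cells (0.76) than in GFP- cells (0.55). Over the 10 GFP- arrays 7 genes, Gng8, Dpysl3, Dpysl5, Stmn2, Dcx, Sox11 and Tubb3, rose and fell together, with Pearson correlations of 0.54 to 0.95 in their 21 pairs (median 0.78). Gap43 and Stmn1 correlated with each other at 0.78 and with those 7 at -0.42 to 0.42. Stmn4 correlated with the 7 at -0.55 to -0.31. These sets were drawn after the values were seen, and the arrays share 5 replicate numbers and 1 normalization.

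The split rested in large part on 2 of the 3 arrays that correlated least with their groups. On vehicle GFP- 1 the same 7 genes were each the lowest of their group, by 1.48 (Stmn2) to 4.01 (Dpysl3) below the mean of the other 4 centred arrays, whereas Stmn1 was 0.45 and Stmn4 0.66 above it and Gap43 was the third of 5. Odor GFP- 2 showed the same order: the 7 genes were lowest of 5, with Tubb3 furthest, at -2.21, while Gap43, Stmn1 and Stmn4 were 0.74, 0.64 and 0.85 above the others. On vehicle GFP+ 2 Dpysl3, Dpysl5, Stmn2, Dcx and Tubb3 were again the lowest of their group and Gap43, Gng8 and Stmn4 the highest. Without vehicle GFP- 1 and odor GFP- 2 the median correlation among the 7 genes fell from 0.78 to 0.37, with a lowest value of -0.42, and that of Gap43 and Stmn1 with the 7 moved from -0.05 to 0.50. The correlation of Gap43 with Stmn1 was then 0.80 (n = 8 arrays), and Stmn4 correlated with the 7 at -0.24 to 0.55. On vehicle GFP- 1 the mean signal of 17 mature neuron genes was also low, at 14.54 where the other 4 arrays of the group had 15.79 to 16.30, and that of 14 immune cell genes was 11.59 against 11.78 to 12.38. Their part in the pattern was not tested. Leaving out the pools of all 3 doubted arrays left only vehicle pools 3 to 5 on the vehicle side. The same 5 genes then passed in vehicle pools, with changes of -5.45 (Gng8), -4.03 (Dpysl3), -3.14 (Sox11), -2.78 (Gap43) and -2.57 (Stmn1).

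**Figure D3:**
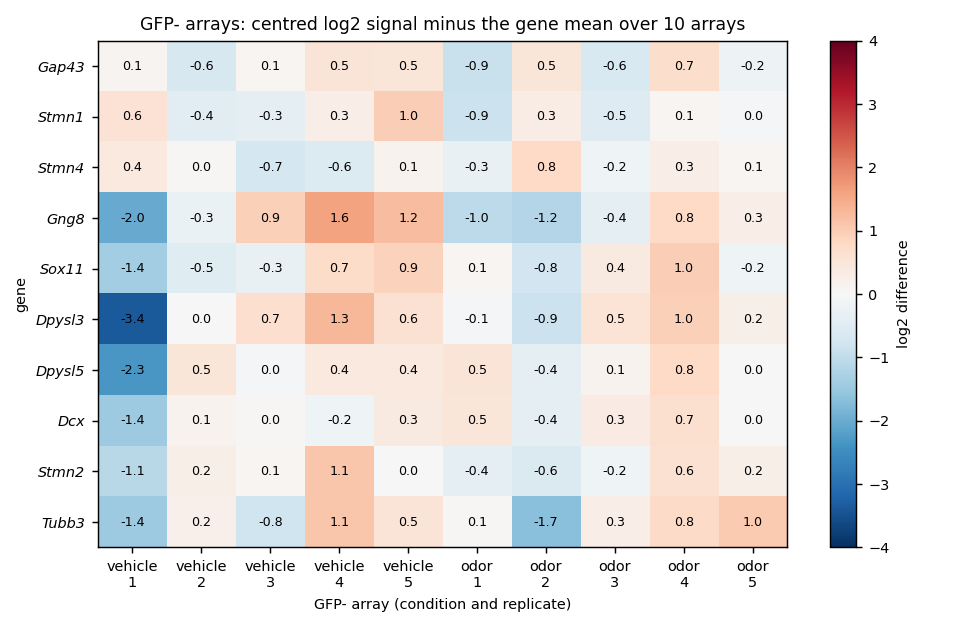
Deviation of each gene from its own mean over the 10 GFP- arrays (log2, after centring each array on its median; rows are genes, columns arrays by condition and replicate). Vehicle 1 is low for the 7 lower rows, most for Dpysl3, and not for Gap43, Stmn1 and Stmn4 in the upper rows.

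The genes whose pattern was most like the mean of the 10, over all 20 centred arrays, were Tubb2b, a beta-tubulin of developing neurons (Pearson r = 0.923), Stk32a (0.921), the phosphodiesterase gene Pde8a (0.918), Tsc22d3 (0.912) and Grn, which encodes progranulin (0.910). Of the 10 themselves Dpysl3 (0.910), Sox11 (0.864) and Gng8 (0.822) lay closest to that mean, while Dcx (0.188), Tubb3 (0.299) and Stmn4 (-0.536) did not follow it. S100a5 was at -0.759. Over the 10 GFP- arrays alone the closest genes were Vps72 (0.948), Nhlh1, a bHLH factor of young olfactory neurons (0.944), Olfr1255, Ccn3 and Zswim4 (0.928 each), and S100a5 was at -0.459. These correlations describe arrays that share the sort and the replicate batches, and have no test.

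Of other genes of outgrowth a few were lower in GFP+ cells and most were not past the threshold, where 6.86% of all probe sets were lower in vehicle pools. Of 27 relatives from the same gene families 3 were lower in vehicle pools, the gamma subunit genes named above, and 0 higher, with a median of -0.13 where the 10 genes had -1.55, and again 3 in odor pools. Of 25 other growth cone and neurite genes 4 were lower: Tmsb10 (-2.88), a thymosin that binds actin, the actin-binding Ablim1 (-2.68), Marcks (-2.37), a membrane protein regulated like Gap43 by protein kinase C, and Cotl1 (-1.73). The median of these 25 was -0.09, and 5 were lower in odor pools, with Fscn1, which bundles actin (-1.48, adjusted p = 0.0227 by limma), as the fifth. The mean signals of Fscn1 there, 5.23 in GFP- and 3.75 in GFP+ cells, were both below the highest background control median. The size of its difference is therefore not exact. Of 19 other genes of young sensory neurons 3 were lower: Cxcr4 (-5.11), the receptor of the chemokine Cxcl12, and the bHLH factors Nhlh1 (-4.13) and Nhlh2 (-1.66). In GFP+ cells of vehicle pools the mean signals of Cxcr4 (5.51), Nhlh1 (4.97), Ablim1 (4.67), Gng2 (5.84) and Gng12 (5.00) did not exceed 6.34, the highest background control median of any array, so the sizes of their differences are not exact. The other 16, among them the EBF and homeodomain factors of the lineage, had changes from -0.46 to 0.63 and did not pass. Of 17 mature neuron genes 1 passed, Kcnmb3 (1.68), and all 17 had positive changes (0.09 to 1.68, median 0.59). The call of Kcnmb3 ended without both pools numbered 5 (adjusted p = 0.0624), without vehicle replicate 3 (0.067) and with unpaired fractions (0.245).

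Markers of some other cell types moved with the same sort. Of 14 measured immune cell genes 14 were lower in GFP+ cells of vehicle pools, with Lcn2 at -11.24, Ngp at -11.06 and S100a8 at -10.74, and 13 in odor pools. The mean signal of that list was 11.59 to 12.38 in vehicle GFP- and 5.62 to 6.04 in vehicle GFP+ samples, and 11.06 to 12.21 against 5.71 to 6.0 in odor pools. White blood cells are known to carry Cxcr4, Tmsb10, Cotl1, Marcks and Gng2, and dividing cells of any kind carry Stmn1. Of 11 genes of globose basal and cycling cells 6 were lower in each condition, but not the same 6. Cdk1 and Pcna passed only in vehicle pools, and Sox2 and Ezh2 only in odor pools. Mki67 was at -5.33, Kit at -3.91 and Top2a at -2.07 in vehicle pools. Their GFP+ means there, 5.48, 4.98 and 4.72, did not exceed the highest background control median either, so these sizes are not exact. The mean of that list was 6.53 to 8.49 in vehicle GFP- and 5.39 to 6.51 in vehicle GFP+ samples, and 6.54 to 8.66 and 5.45 to 6.49 in odor pools. The part of immune and dividing cells in the lower signals of the 5 genes was not tested.

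Microvillar and tuft-like cell genes were lower in 7 of 10 cases, with Hepacam2 at -4.53, Trpm5 at -4.45 and Foxi1 at -2.90 in vehicle pools, and in 7 of 10 in odor pools. The GFP+ means of Hepacam2 (6.15) and Trpm5 (5.36) did not exceed the highest background control median. The mean signal of the list was 7.10 to 8.51 in vehicle GFP- and 5.25 to 6.02 in vehicle GFP+ samples. Sustentacular genes were lower in 3 of 10 cases (Krt18 at -2.57, Sult1c1 at -2.45 and Cyp1a2 at -1.50; in odor pools 1 passed), with means of 8.36 to 9.53 and 7.65 to 8.63. Bowman gland and secretory genes were lower in 3 of 10 cases (Sox9 at -4.09, Lyz1 at -2.96 and Scgb1c1 at -2.65; in odor pools 2 passed, with Scgb1c1 at -1.31 and an adjusted p of 0.0593), with means of 7.80 to 8.45 and 6.42 to 7.51. The GFP+ mean of Lyz1 in vehicle pools, 5.05, was below every background control median. The remaining lists lay near background. In vehicle pools 1 of 6 ensheathing glia genes passed, Erbb3 (-1.07, adjusted p = 0.0433 by limma). Of 9 endothelial and stromal genes 1 passed there, Pecam1 (-1.17, adjusted p = 0.0196 by limma), and none of 8 horizontal basal cell genes did. In odor pools 0 of 6 glia genes passed (Erbb3 at -0.35, adjusted p = 0.7), 1 of 9 endothelial and stromal genes (Pecam1 at -1.02) and 0 of 8 horizontal basal cell genes. The list means of glia (4.66 to 5.81 in vehicle GFP- and 4.60 to 5.44 in vehicle GFP+ samples) and of horizontal basal cells (4.17 to 4.78 and 4.27 to 4.79) overlapped between fractions. Their part was not tested.

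**Figure D4:**
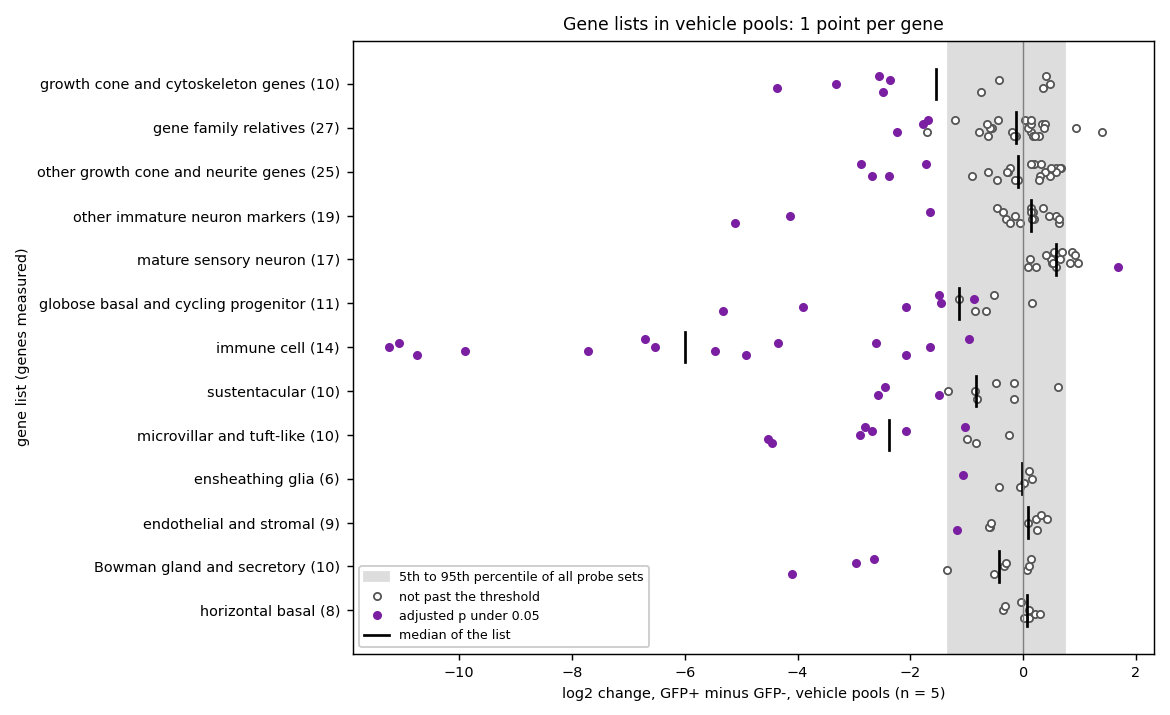
Log2 change from GFP- to GFP+ cells in vehicle pools for every measured gene of the 10 growth cone and cytoskeleton genes and of 12 other lists; filled points had an adjusted p under 0.05 by limma, lines are list medians, and the grey band runs from the 5th to the 95th percentile of all probe sets. The first row splits into 5 points at -2.36 or lower and 5 between -0.74 and 0.47.

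Odor pulses did not move any of the 10 genes past the threshold. In GFP+ cells the odor minus vehicle differences ran from -0.33 (Gap43) to 0.38 (Stmn2), with a median of -0.10 against 0.03 over all probe sets. In GFP- cells they ran from -0.62 (Gng8) to 0.42 (Dpysl5 and Dcx), with a median of 0.18 against 0.02. The value of Gng8 was -1.24 without vehicle replicate 1, -0.17 without vehicle replicate 5 and -1.45 without the 3 pools of doubted arrays. By limma 0 of 22206 probe sets (0%) passed in either fraction. Before adjustment, 61 probe sets in GFP+ and 30 in GFP- cells had a p under 0.05, with 0 of the 10 genes among them. With the replicate block these counts were 820 and 190, and with a term for the arrays of replicate 5 they were 476 and 234, with 0 probe sets past the adjusted threshold in each.

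The spread, which took in the brighter arrays of replicate 5, limits what this shows. The intervals are those of the fits without a block. For Gng8 in GFP- cells the mean was 10.04 ± 1.69 in vehicle and 9.42 ± 1.15 in odor pools (SD, n = 5 each), and the 95% confidence interval of the difference ran from -2.33 to 1.09. For Dpysl3 it was 10.76 ± 1.99 and 11.06 ± 0.89, with an interval from -1.52 to 2.12. For Stmn1 in GFP+ cells it was 10.66 ± 1.35 and 10.41 ± 0.84, with an interval from -1.60 to 1.10. The tightest intervals in GFP+ cells belonged to Gng8 (-0.69 to 0.45), which lay at background there, and Dpysl5 (-0.33 to 0.94). In GFP- cells the interval of each of the 10 genes reached a 2-fold change in at least 1 direction.

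The difference between fractions was also compared between conditions directly. The odor effect on it was -0.11 for Gap43, 0.50 for Gng8, -0.46 for Dpysl3, 0.18 for Stmn1 and -0.51 for Sox11, each with an adjusted p of 1.0 by limma and 0 of 22206 probe sets past the threshold (269 at an unadjusted p under 0.05, none of them among the 10 genes). The 95% confidence intervals were -1.20 to 0.98, -0.98 to 1.98, -2.04 to 1.11, -0.87 to 1.23 and -1.70 to 0.69 in that order. For the other 5 genes the estimates ran from -0.49 (Dcx) to 0.52 (Stmn2). Without vehicle replicate 1 the estimate for Dpysl3 turned from -0.46 to 0.36. That for Gng8 was 0.98 without vehicle replicate 1, 0.10 without vehicle replicate 5 and 1.42 without the 3 pools of doubted arrays. The 5 genes that were lower in GFP+ cells therefore had values in odor pools that differed from those in vehicle pools by less than the error of the difference.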

How the data were processed

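Values for 20 samples (4 groups of 5) were analysed, 1 Affymetrix Clariom S mouse array each, from 50 to 100 ng of RNA per the labels' protocols. The authors processed the arrays with Affymetrix Expression Console, per the submitters' processing notes. Not given in the sources used here were its version and the normalization method. The authors deposited log2 signals, a scale judged from their range, which entered the tests unchanged. Of 28846 rows, 6640 controls were left out and 22206 gene probe sets kept with no filter. 19572 had 1 gene symbol, all matched by Entrez ID to RefSeq (GRCm38.p6), and 2634 had none. The probe set with the highest mean stood for a gene. No detection calls were given, and the number of arrays limits the precision.

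Tests used limma 3.58.1 in R 4.3.3 (lmFit, eBayes, Benjamini-Hochberg over all probe sets, threshold 0.05). GFP+ minus GFP- differences within pools, whose fractions came from the same mice by the labels' count of 30 mice in 10 pools, entered 1 fit over 10 pools. Odor and vehicle were compared within fractions without a block. Deviations of same-numbered odor and vehicle samples correlated at 0.16 to 0.86 in GFP+ cells, above the limit of 0.1, and at -0.38 to 0.84 in GFP- cells. By that limit the numbers paired in GFP+ cells only. Among replicates 1 to 4 alone, replicate 1 in GFP+ cells fell to -0.049, below the limit. The fits without a block, which gave the odor intervals, ignore any such pairing, and the block was run as an alternative. With the replicate block 0 of the 10 genes passed in each odor comparison. The code was tested on simulated data. Alternatives were quantile normalization, centring, a filter on the dimmest 25% of probe sets, an intensity trend, unpaired fractions, the block, leaving out pools and, added after seeing the data, a term for the arrays of replicate 5 and leaving out 3 pools with doubted arrays. Sequences are from the RefSeq promoter table. Genes, lists and motifs were chosen with earlier results of these data known. Named genes were the 10, S100a5, Omp, genes of each list past the threshold in vehicle pools (at most 6, otherwise the 3 largest changes) and the 5 closest by correlation. Family relatives that did not pass were added after their values were seen.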

Additional observations from a re-analysis of the deposited data

Results flagged for a closer look

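Each of the 10 genes was examined in the 4 groups and in the pool differences of both conditions, 60 sets of 5 values, for a sample whose gap to its nearest neighbour took up more than 0.71 of the range of the set. Chance alone gives about 1 such sample in 20 sets, and 3 were found. The GFP+ minus GFP- difference of Dpysl3 in vehicle replicate 1 was -0.04, where the nearest of the other vehicle pools was at -3.55. Stmn2 in vehicle GFP+ replicate 5 was at 14.85, where the next sample was at 13.28. Stmn4 in odor GFP+ replicate 5 was at 14.36, where the next was at 13.70. Both of the latter are arrays of replicate 5, whose median gene signals were 7.03 to 7.46 against 6.06 to 6.39 elsewhere. No gene differed between odor and vehicle pools in its change between fractions by limma.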

How the results depend on the processing

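Gap43, Gng8, Dpysl3, Stmn1 and Sox11 passed under each of the 18 alternatives in vehicle and in odor pools. Leaving out a pool of the other condition could not move the size of a change. The intensity trend, the filter on dim probe sets, unpaired fractions and the replicate 5 term left it the same too. The changes of the vehicle pools ran from -2.93 to -2.24 for Gap43, -5.45 to -3.97 for Gng8, -4.14 to -3.03 for Dpysl3, -2.91 to -2.20 for Stmn1 and -3.14 to -2.01 for Sox11. The count of 5 genes became 6 in vehicle pools with quantile normalization and 7 without vehicle replicate 1, and was 5 in all other cases. Over all probe sets, unpaired fractions gave 219 higher and 979 lower calls in vehicle pools where the paired fit gave 501 and 1523, and 206 and 844 in odor pools where it gave 460 and 1292. Gng12 lost its call in that fit. Counted over S100a5 and the named genes of the other lists, calls in vehicle pools were kept in 521 alternative fits and lost in 53. Among these genes the adjusted p by limma was 0.0433 for Erbb3, 0.0221 for Cyp1a2, 0.0214 for Cdk1 and Pcna and 0.0196 for Pecam1. The replicate block gave 0 genes in each odor comparison and changed no call there. Signs turned only for values that did not pass under any alternative, and the cause was not tested. In the sort of odor pools Dcx was 0.19 with centring and -0.16 to 0.15 with 1 pool left out. The odor effect on the difference between fractions, without the 3 pools with doubted arrays, was 0.24 for Gap43, 0.19 for Dpysl5, 0 for Stmn4, 0.06 for Sox11 and -0.33 for Tubb3, and for Tubb3 -0.01 with quantile normalization and -0.01 with centring. With 1 pool left out it ran from -0.34 to 0.34 for Gap43, -0.75 to 0.36 for Dpysl3, -0.44 to 0.53 for Dpysl5, -0.17 to 0.54 for Stmn1, -0.86 to 0.03 for Sox11 and -0.36 to 0.41 for Tubb3. In GFP+ cells odor minus vehicle was -0.03 for Stmn4 with quantile normalization and -0.16 for Tubb3 without the 3 pools. With 1 pool left out it ran from -0.26 to 0.01 for Gng8, -0.47 to 0.06 for Dpysl3, -0.58 to 0.28 for Stmn1, -0.10 to 0.28 for Stmn4, -0.27 to 0.07 for Dcx and -0.18 to 0.53 for Tubb3. In GFP- cells it was -0.54 for Dpysl3 and -0.22 for Sox11 without the 3 pools. With 1 pool left out it ran from -0.46 to 0.09 for Gap43, -0.54 to 0.70 for Dpysl3, -0.14 to 0.78 for Dpysl5, -0.48 to 0.06 for Stmn2, -0.17 to 0.66 for Sox11 and -0.30 to 0.66 for Tubb3. Gng8 in GFP+ cells lay at background, so the size of its change is not exact. For Gng8 the odor effect on the difference between fractions ran from 0.10 to 1.42 and odor minus vehicle in GFP- cells from -1.45 to -0.17 over the alternatives.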
